A study of Mus musculus with 28 samples.

Results

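The comparison set the mesenchyme of mouse back skin against its epithelium, using 10 of the 28 libraries of a study of cell populations sorted by flow cytometry at postnatal day 5, when hair follicles grow down into the dermis. The mesenchyme was made up of 4 libraries, 2 of dermal fibroblasts (DF; Lef1-RFP-positive, negative for CD117, which is the Kit receptor, and for integrin alpha 9) and 2 of dermal papilla (DP; Lef1-RFP-positive with high integrin alpha 9). The epithelium was made up of 6 libraries, 2 each of epidermis (Epi; K14-H2BGFP-positive cells of the epidermal preparation), outer root sheath (ORS; high K14-H2BGFP, dermal preparation) and hair matrix (Mx; low K14-H2BGFP, dermal preparation). All 10 came from mice of mixed FVB/N, C57BI/6J (as labelled) and CD1 background that carried both the K14-H2BGFP and the Lef1-RFP transgene. K14-H2BGFP puts a green fluorescent histone in keratinocytes through the keratin 14 promoter, and the driver of Lef1-RFP is taken here only as its name gives it. The members were chosen by these column names, and the genes by a level of at least 1 FPKM (fragment counts divided by transcript length and by library size) in at least 2 of the 10 libraries. That left 13814 of the 23015 genes in the deposited table.

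Skin mesenchyme and epithelium are separate tissue layers that meet at a basement membrane. Keratinocytes are held together by desmosomes, tight junctions and E-cadherin and are anchored to the membrane by hemidesmosomes. Fibroblasts lie singly in a matrix of fibrillar collagen that they secrete. In the growing follicle the dermal papilla sits inside the epithelial matrix, and the layers exchange secreted signals.

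A gene was called at a limma adjusted p under 0.05 with a log2 difference of at least 1, on log2(FPKM + 1), mesenchyme minus epithelium. Each population had the same weight within its side. The error was the spread between the 2 libraries of each population, not that between populations of a side. Called without overlap means, in addition, that every library of the higher side lay above every library of the lower side. The gap is the distance on the log2 scale between the lowest library of the higher side and the highest library of the lower side. Of the 13814 genes, 2242 (16.2%) were called higher and 1842 (13.3%) lower in mesenchyme. Without overlap, 1567 genes (11.3%) were higher and 1001 (7.25%) lower. When every library was scaled to the same FPKM sum, an alternative chosen after seeing the data, these 2 counts were 2016 higher and 484 lower, and the median log2 difference of all genes was 0.21, against -0.07 as deposited. The split between directions is therefore tied to the scaling, while none of the genes named here that passed the test changed sign under that scaling.

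The labels could be checked against genes that define the 2 layers. Fibroblast markers summed to 2953 and 6237 FPKM in DF and 3924 and 2346 FPKM in DP, against 29.2 to 504 FPKM in the epithelial libraries. Keratinocyte markers summed to 1072 and 315 FPKM in DF and 81.3 and 119 FPKM in DP, against 3484 to 28024 FPKM in epithelium. The 2 layers thus stood apart in every library on both lists, with the first DF library holding the most keratinocyte RNA of the mesenchyme. DF also carried RNA of further cell types. Melanocyte markers summed to 1433 and 1459 FPKM in DF and 28.2 and 32.8 FPKM in DP, against 6.61 to 51.6 FPKM in epithelium. Pericyte and smooth muscle markers summed to 703 and 696 FPKM in DF and 46.9 and 56.4 FPKM in DP, against 25.7 to 227 FPKM in epithelium. Schwann cell markers summed to 166 and 217 FPKM in DF and 107 and 96.6 FPKM in DP, against 46 to 67.1 FPKM in epithelium, and all 10 were at 1 FPKM or more in both DF libraries. The sorted melanocyte libraries of the study held 443 and 366 FPKM of these Schwann cell markers. The part of melanocyte RNA in the DF sums of that list was not tested. The part of such further cell types in any single gene below was not tested either. In such bulk libraries, fewer cells of a type and less RNA per cell cannot be told apart. Replicates of a population correlated at 0.896 to 0.963 across genes (Pearson's r, log2 scale), libraries of different populations of 1 side at 0.815 to 0.933, and libraries of opposite sides at 0.594 to 0.81.

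The 4 marker genes of the layers were at opposite ends of the scale. Col1a1 (chr11:94936224-94953042 of GRCm38.p6), a chain of type I collagen, had 529 and 768 FPKM in DF and 781 and 217 FPKM in DP, against 0.0336 to 1.99 FPKM in epithelium (median 1.34). The difference was 8.03 ± 0.32 on the log2 scale (SE; limma adjusted p = 9.08e-08). Pdgfra (chr5:75151322-75198206), a receptor for platelet-derived growth factor, had 41.6 and 103 FPKM in DF and 155 and 140.0 FPKM in DP, against 0.0255 to 0.712 FPKM in epithelium (median 0.17). For both genes the lowest mesenchymal library stood far above the highest epithelial one. Krt5 (chr15:101707069-101712905), the type II keratin of basal keratinocytes, had 223 and 65.6 FPKM in DF and 17.5 and 21.3 FPKM in DP, against 764 to 15798 FPKM in epithelium (median 2403). Its difference was -5.87 ± 0.32 (adjusted p = 5.24e-07). Cdh1 (chr8:106603350-106670247), which encodes E-cadherin, had 36.1 and 16.4 FPKM in DF and 6.66 and 3.29 FPKM in DP, against 118 to 359 FPKM in epithelium (median 135). The epithelial markers were separated without overlap but were well above 0 in DF, whereas the mesenchymal markers were near 0 in epithelium.

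**Figure D1:**
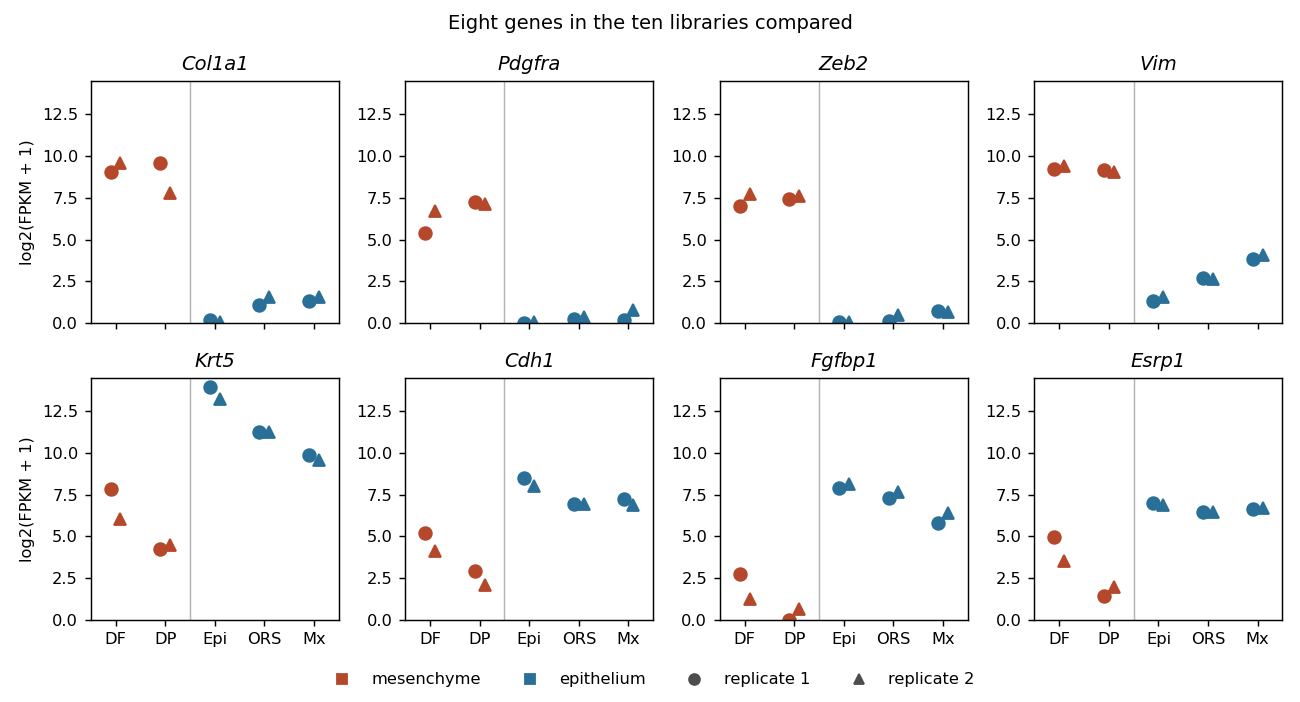
Levels of 8 genes on the log2(FPKM + 1) scale (y axis) in each library, with DF and DP (mesenchyme) left of the grey line and Epi, ORS and Mx (epithelium) right of it; circles are first and triangles second replicates. Col1a1, Pdgfra, Zeb2 and Vim sit high on the left and low on the right, and Krt5, Cdh1, Fgfbp1 and Esrp1 the other way round, with the DF libraries above the DP libraries in these last 4.

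The genes of the sorting gates followed in part. Itga9, integrin alpha 9, had 9.37 and 29.8 FPKM in DF, which was gated negative for it, and 113 and 109 FPKM in DP, against 0.0827 to 0.6 FPKM in epithelium. All 4 mesenchymal libraries were above every epithelial one. Lef1, a transcription factor of the Wnt pathway whose reporter marked both DF and DP, had 125 and 56.1 FPKM in DF and 96.7 and 87.5 FPKM in DP. The epithelial libraries held 4.51 to 115 FPKM of it, with the highest values, 105 and 115 FPKM, in Mx. Lef1 was called higher in mesenchyme (1.91 ± 0.25, adjusted p = 0.000152), yet the sides overlapped through Mx. Kit had 40.2 and 55.4 FPKM in DF, although CD117-positive cells were gated out there, and 9 and 5.86 FPKM in DP, against 0.0341 to 21.7 FPKM in epithelium. Its sides also overlapped.

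The largest gaps were on the mesenchymal side. The 10 leading genes there were Mfap4, Col3a1, Col1a2, Lum, Zeb2, Col6a3, Inhba, Ebf1, Col1a1 and Corin, with gaps from 7.1 for Mfap4 to 5.83 for Corin. Of these, 6 encode matrix proteins. Mfap4, a glycoprotein of elastic microfibrils, had 355 and 589 FPKM in DF and 403 and 209 FPKM in DP, against 0 to 0.534 FPKM in epithelium. The difference was 8.11 ± 0.23 (adjusted p = 1.69e-08). Col3a1, type III collagen, had 832 and 2358 FPKM in DF and 1010.3 and 698 FPKM in DP, against 0.0845 to 5.54 FPKM in epithelium. For both genes every mesenchymal library was far above the highest epithelial one. Corin, a membrane serine protease known from the dermal papilla, had 83.9 and 104 FPKM in DF and 372 and 472 FPKM in DP, against 0.0536 to 0.489 FPKM in epithelium. DP held the higher values of Corin, while DF was far above the epithelium too. Inhba, a subunit of activin A, had 338 and 340.2 FPKM in DF and 957 and 874 FPKM in DP, against 0.371 to 4.48 FPKM in epithelium. Ebf1, a transcription factor, had 112 and 102 FPKM in DF and 429.7 and 336 FPKM in DP, against 0 to 0.688 FPKM in epithelium.

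The largest gaps on the epithelial side were smaller, from 3.11 for Fgfbp1 to 1.77 for Krt5. The 10 leading genes were Fgfbp1, Krt15, Cbs, Barx2, Fam83b, Krtdap, Serpinb5, Fam167a, S100a14 and Krt5. Fgfbp1, which encodes a secreted carrier of fibroblast growth factors, had 5.56 and 1.37 FPKM in DF and 0 and 0.578 FPKM in DP, against 55.4 to 276 FPKM in epithelium (median 177). The difference was -6.04 ± 0.29 (adjusted p = 2.37e-07). Krt15, a type I keratin of basal and bulge cells, had 14.9 and 3.32 FPKM in DF and 3.78 and 3.31 FPKM in DP, against 83.2 to 2115 FPKM in epithelium. Mx was the lowest epithelial population for both genes, and it was still above all of the mesenchyme. Cbs, the enzyme that joins homocysteine and serine to cystathionine, had 1.6 and 1.03 FPKM in DF and 2.08 and 2.46 FPKM in DP, against 15.4 to 66.8 FPKM in epithelium. Barx2, a homeobox gene, had 1.37 and 1.46 FPKM in DF and 0 and 0.18 FPKM in DP, against 10.5 to 57.9 FPKM in epithelium. S100a14, a calcium-binding protein of epithelia, had 56.9 and 16.9 FPKM in DF and 6.14 and 4.75 FPKM in DP, against 202 to 340.2 FPKM in epithelium. Cbs differed little among the 4 mesenchymal libraries, whereas S100a14, like Krt5 and Cdh1, was highest of them in the first DF library.

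**Figure D2:**
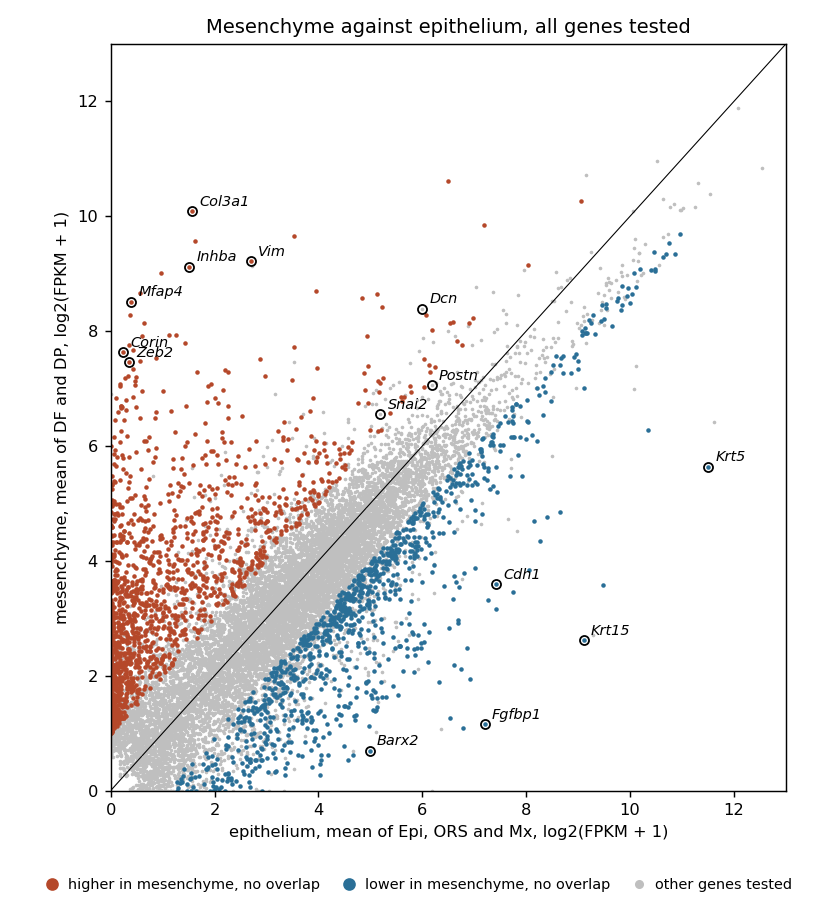
Mean level of each of the 13814 genes in mesenchyme (y axis, mean of DF and DP) against epithelium (x axis, mean of Epi, ORS and Mx), both as log2(FPKM + 1); colours mark genes called without overlap, grey the rest, and the line is equality. Many of the 1567 genes higher in mesenchyme lie against the y axis, near 0 in epithelium, and the 1001 lower genes lie closer to the line.

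The 2 directions differed in how low the lower side was, a comparison made only among genes called without overlap. A gene below 1 FPKM throughout its lower side passed the filter only through the side where it was high. With a filter at 5 FPKM, 1150 genes were higher and 966 lower without overlap. Among the 1567 genes higher in mesenchyme, 689 were below 1 FPKM in every epithelial library, and 115 of these were listed at 0 in all 6. The median gap was 0.8. Among the 1001 genes lower in mesenchyme, 72 were below 1 FPKM in every mesenchymal library and 8 were listed at 0 in all 4, with a median gap of 0.41. These genes were mostly well expressed in epithelium, 658 of them at 10 FPKM or more in each epithelial library, against 522 of the 1567 that reached this in each mesenchymal library. DF and DP means were within 1 on the log2 scale for 1042 of the 1567 higher genes, DP was at least 1 above DF for 396, and DF at least 1 above DP for 129. Of the 1001 lower genes, DF was at least 1 above DP for 185 and DP at least 1 above DF for 2. The keratinocyte marker sums given above were likewise higher in both DF libraries than in both DP libraries. With DP as the whole of the mesenchyme, 2183 genes were higher and 1848 lower without overlap, and those 1848 included 966 of the 1001. The 1001 genes necessarily kept their order when DF was dropped, so only the limma call could be lost. Within the epithelium, 453 of the 1001 had their highest population mean in Mx, 357 in Epi and 191 in ORS. For the 1567 higher genes it was in ORS for 707, in Mx for 436 and in Epi for 424. These splits, those of DF against DP and the counts by FPKM level were not made over all tested genes and are only descriptions.

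**Figure D3:**
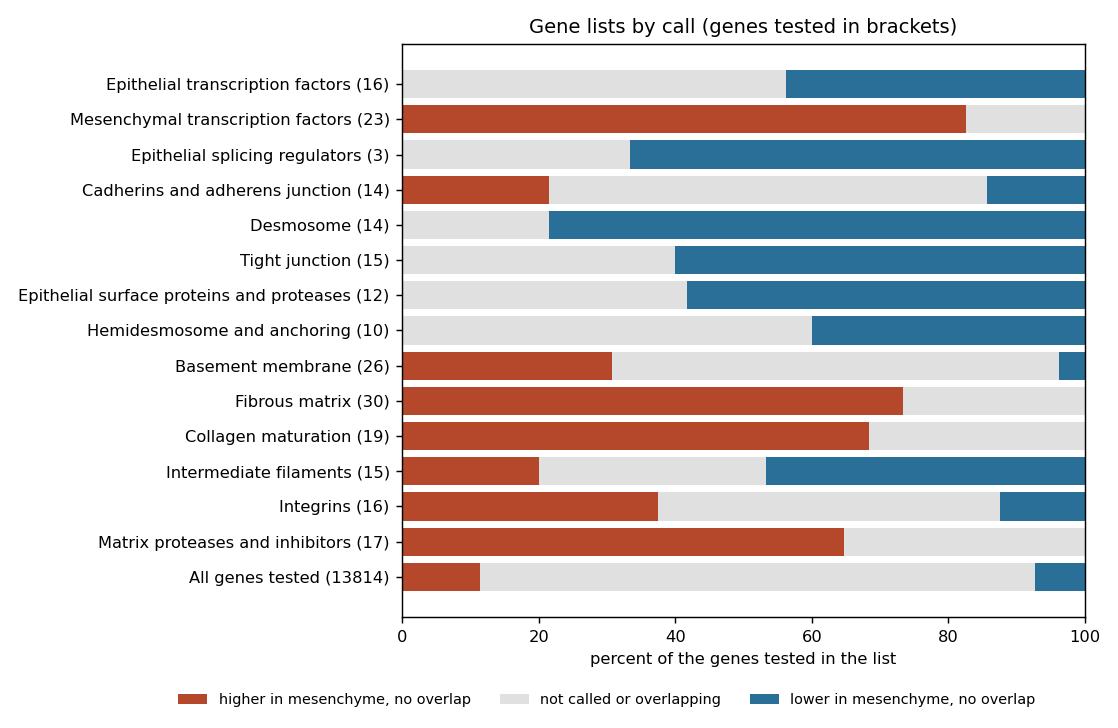
Share of the tested genes of 14 lists and of all genes (x axis, percent) called higher in mesenchyme without overlap (left segment), called in neither way without overlap (grey) and called lower without overlap (right segment); the number tested is in brackets. Transcription factors of mesenchyme, fibrous matrix, collagen maturation and matrix proteases fill the left, and desmosome, splicing regulators and tight junction the right.

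Those transcription factors of each layer that were called all lay on their own side, though not all without overlap. Of 23 tested factors listed as mesenchymal, 22 were called higher and 0 lower, 19 of them without overlap, with a median log2 difference of 4.03 against -0.07 over all genes. Among all genes, 16.2% were called higher, 11.3% without overlap. Zeb2 (chr2:44983512-45117442), a zinc finger repressor known to silence E-cadherin, had 127 and 212 FPKM in DF and 175 and 196 FPKM in DP, against 0.0339 to 0.644 FPKM in epithelium (median 0.25). The difference was 7.1 ± 0.21 (adjusted p = 1.69e-08), with no overlap. Prrx1, a homeobox gene of limb and skin mesenchyme, had 73.9 and 112 FPKM in DF and 91.8 and 137 FPKM in DP, against 0 to 0.357 FPKM in epithelium. Tbx15, a T-box factor of the dermis, had 64.8 and 119 FPKM in DF and 108 and 119.6 FPKM in DP, against 0 to 0.692 FPKM in epithelium. Prrx1 and Tbx15 thus hardly differed between DF and DP. Alx4, a homeobox factor, had 35.8 and 31.5 FPKM in DF and 143 and 147 FPKM in DP, against 0 to 0.122 FPKM in epithelium. Twist2, a basic helix-loop-helix factor of dermis, had 22.4 and 32 FPKM in DF and 9.24 and 7.9 FPKM in DP and was listed at 0 in all 6 epithelial libraries. Osr1, a zinc finger factor, had 11.5 and 16.9 FPKM in DF and 88.5 and 34.4 FPKM in DP and was likewise listed at 0 in epithelium. The DP libraries were above DF for Alx4 and Osr1 and below it for Twist2.

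The repressors linked to loss of epithelial character did not all behave alike. Twist1, Zeb1, Zeb2 and Snai1 were without overlap, with log2 differences of 5.9 for Twist1, 3.52 for Zeb1, 7.1 for Zeb2 and 3.36 for Snai1. Snai2 (chr16:14705852-14709395), the Snail family member that basal keratinocytes also express, had 46.5 and 49.7 FPKM in DF and 129.8 and 244 FPKM in DP, against 12.7 to 73.6 FPKM in epithelium (median 38.2). It was called higher in mesenchyme by 1.36 ± 0.29 (adjusted p = 0.00306), but both DF libraries lay within the epithelial range. Ebf2 and Ebf3 were also called with overlap, and Meox1 was not called.

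Of 16 tested epithelial factors, 13 were called lower and 0 higher, 7 of them without overlap, with a median of -2.44. Among all genes, 13.3% were called lower, 7.25% without overlap. Trp63, the p63 gene required for stratified epithelium, had 179 and 42.7 FPKM in DF and 10 and 5.43 FPKM in DP, against 225 to 446 FPKM in epithelium. Grhl2, a grainyhead factor that maintains epithelial junctions, had 18.9 and 3.29 FPKM in DF and 3.64 and 2.13 FPKM in DP, against 33.2 to 41.6 FPKM in epithelium. The epithelial range of Grhl2 was narrow across Epi, ORS and Mx. Sox9, a factor of outer root sheath and bulge, had 4.6 and 2.69 FPKM in DF and 2.93 and 5.93 FPKM in DP, against 9.06 to 101 FPKM in epithelium, highest in ORS. Klf4, known from differentiating epidermis, had 51.5 and 34.5 FPKM in DF and 58.8 and 45.1 FPKM in DP, against 12.2 to 110.3 FPKM in epithelium. All 4 mesenchymal libraries lay within the epithelial range (0.25 ± 0.22, adjusted p = 0.376). Ehf and Tfap2c were not called either, and Grhl1, Grhl3, Ovol1, Klf5, Tfap2a and Lhx2 were called lower with overlap. The splicing regulators of epithelia were lower as well. Esrp1, which directs epithelial exon choice, had 29.9 and 10.4 FPKM in DF and 1.65 and 2.96 FPKM in DP, against 85 to 124 FPKM in epithelium. Esrp1 and Rbm47 were lower without overlap, while Esrp2 was called lower (-2.99 ± 0.44, adjusted p = 0.000325) with overlap through the first DF library.

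The hexamer CACCTG, or CAGGTG when read on the other strand, is the E-box that Zeb and Snail proteins are known to bind. Promoters of 4 genes, picked by hand as examples, are shown for it. The marker genes Col1a1 and Cdh1 had no promoter entry and could not be shown. They are RefSeq sequences of GRCm38.p6 from 250 bases before to 50 bases after the annotated start, written 5′ to 3′ on the gene's strand, with the hexamer in capitals. Pdgfra is at chr5:75152001-75152300 (plus strand), Col3a1 at chr1:45311288-45311587 (plus), Krt5 at chr15:101712856-101713155 (minus) and Epcam at chr17:87635729-87636028 (plus). The Pdgfra start used there lies inside the gene as placed above, downstream of its first base, so that this window is internal to the gene's span.
Pdgfra: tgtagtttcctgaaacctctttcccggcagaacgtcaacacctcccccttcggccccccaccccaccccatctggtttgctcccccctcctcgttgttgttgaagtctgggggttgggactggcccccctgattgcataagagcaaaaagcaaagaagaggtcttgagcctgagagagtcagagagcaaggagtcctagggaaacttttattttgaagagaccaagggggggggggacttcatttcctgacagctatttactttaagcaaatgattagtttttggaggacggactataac
Col3a1: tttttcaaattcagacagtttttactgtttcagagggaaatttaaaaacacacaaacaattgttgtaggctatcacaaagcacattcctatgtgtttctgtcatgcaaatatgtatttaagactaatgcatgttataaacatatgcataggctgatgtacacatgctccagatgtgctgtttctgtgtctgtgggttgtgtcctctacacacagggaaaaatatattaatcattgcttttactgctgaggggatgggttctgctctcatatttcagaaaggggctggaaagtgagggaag
Krt5: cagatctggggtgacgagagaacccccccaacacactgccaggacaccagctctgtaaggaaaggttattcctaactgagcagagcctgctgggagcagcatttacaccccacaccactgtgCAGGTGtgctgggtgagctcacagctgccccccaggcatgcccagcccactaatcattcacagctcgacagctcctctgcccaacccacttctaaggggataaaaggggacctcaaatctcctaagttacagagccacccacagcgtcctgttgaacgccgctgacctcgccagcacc
Epcam: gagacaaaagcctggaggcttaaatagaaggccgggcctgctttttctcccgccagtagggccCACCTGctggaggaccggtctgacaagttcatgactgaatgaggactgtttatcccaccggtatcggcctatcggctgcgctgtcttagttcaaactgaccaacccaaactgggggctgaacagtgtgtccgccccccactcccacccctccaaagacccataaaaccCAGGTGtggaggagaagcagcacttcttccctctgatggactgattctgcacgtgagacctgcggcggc
The Krt5 window held 1 hexamer, which began at -128 from the start, and the Epcam window held 2, at -187 and -19. The Pdgfra and Col3a1 windows held 0. The hexamer was present in 20.2% of all 32851 RefSeq windows of this length, on either strand. Of the genes called without overlap that had an entry, counting the first entry of each gene, 168 of 1087 higher in mesenchyme (15.5%) and 171 of 733 lower in mesenchyme (23.3%) held it, against 1418 of 8249 other tested genes (17.2%). The median GC content of these windows was 61.7% for the higher genes, 60.3% for the lower and 61% for the others. Most of the lower genes thus lacked the hexamer, unlike Krt5 and Epcam, so the windows shown do not represent their side. A match describes letters in the window and is not a binding site, and these shares were not tested.

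Cell contacts divided by type of junction. Of 14 desmosome genes, 13 were called lower in mesenchyme and 0 higher, 11 without overlap, with a median of -3.39. Among all genes, 13.3% were called lower, 7.25% without overlap. Perp, a tetraspan protein of desmosomes, had 321 and 98.1 FPKM in DF and 20.9 and 52 FPKM in DP, against 796 to 2059.6 FPKM in epithelium. Dsc3, a desmosomal cadherin, had 38 and 12.7 FPKM in DF and 2.44 and 2.54 FPKM in DP, against 111 to 300.1 FPKM in epithelium. Dsp, desmoplakin, had 115 and 37.4 FPKM in DF and 11.5 and 11.6 FPKM in DP, against 244 to 783 FPKM in epithelium. In all of these the order was the same, with DP lowest, DF next and the epithelium above both. The 1 desmosome gene not called was Pkp2, a plakophilin, at 2.31 and 0.789 FPKM in DF and 0.0616 and 0.0531 FPKM in DP, against 0 to 5.81 FPKM in epithelium. It was called lower with DP as the whole of the mesenchyme (-1.28, adjusted p = 0.0041) and without Epi (-1.32, adjusted p = 0.00687).

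Among 15 tested tight junction genes, 10 were called lower and 0 higher, 9 without overlap. The shares of all genes were 13.3% lower and 7.25% lower without overlap. Cldn1, the claudin of the epidermal barrier, had 39.7 and 12.7 FPKM in DF and 4.91 and 6.3 FPKM in DP, against 74.1 to 127 FPKM in epithelium. F11r, the junctional adhesion molecule A, had 7.62 and 2.12 FPKM in DF and 0.143 and 0.564 FPKM in DP, against 19.4 to 50.6 FPKM in epithelium. Tjp1, the scaffold ZO-1, did not follow, with 53.3 and 48.7 FPKM in DF and 41.8 and 52.5 FPKM in DP, against 32 to 61.6 FPKM in epithelium (0.23 ± 0.14, adjusted p = 0.197). Of 12 epithelial surface genes, 11 were called lower, 7 of them without overlap. Epcam, the epithelial cell adhesion molecule whose promoter is shown above, had 17.2 and 4.06 FPKM in DF and 0.921 and 4.24 FPKM in DP, against 28 to 91.5 FPKM in epithelium, lowest in Epi. Cd24a, often used to sort epithelial cells, had 177 and 139.9 FPKM in DF and 84 and 156 FPKM in DP, against 75.7 to 105 FPKM in epithelium, and was the 1 member not called.

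The cadherins were split between the layers. Of 14 genes of cadherins and adherens junctions, 5 were called higher and 5 lower, 3 and 2 of them without overlap. Over all genes the shares were 16.2% and 13.3%, and 11.3% and 7.25% without overlap. Cdh11, known as the cadherin of mesenchyme, had 98.8 and 199 FPKM in DF and 348 and 479 FPKM in DP, against 0.218 to 1.19 FPKM in epithelium. The difference was 7.31 ± 0.26 (adjusted p = 4.94e-08). Cdh2, N-cadherin, had 9.82 and 11.2 FPKM in DF and 25.1 and 22.6 FPKM in DP, against 0 to 0.0551 FPKM in epithelium. Cdh11 was the more abundant of the pair per length in each mesenchymal library. Cdh3, the P-cadherin of follicle keratinocytes, had 80.2 and 27.9 FPKM in DF and 2.25 and 3.21 FPKM in DP, against 61.9 to 126 FPKM in epithelium. It was called lower (-2.88 ± 0.26, adjusted p = 1.32e-05), with the first DF library inside the epithelial range. Cdh13, a cadherin anchored to the membrane by lipid, was called higher by 1.2 ± 0.38 (adjusted p = 0.0236) although Epi, at 53.5 and 60.9 FPKM, stood above all 4 mesenchymal libraries, which held 14.8 to 28.9 FPKM. The call was lost without the first or the second DF library, the first DP library, the first Epi library, the second Mx library or the second ORS library. The catenins Ctnna1, Ctnnb1 and Ctnnd1, which link cadherins to actin, were not called.

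Intermediate filaments showed vimentin on one side and keratins on the other. Vim (chr2:13574311-13582826) had 609.7 and 680.5 FPKM in DF and 566 and 529 FPKM in DP, against 1.5 to 16.2 FPKM in epithelium (median 5.33). The difference was 6.52 ± 0.14 (adjusted p = 7.1e-09), and the 4 mesenchymal libraries were within a narrow range. Nes and Des were also higher without overlap. Des, the desmin of muscle cells and pericytes, had 37.8 and 18.8 FPKM in DF and 1.5 and 0.367 FPKM in DP, against 0 to 0.138 FPKM in epithelium, highest in DF, where pericyte markers were also high. Its call was lost with DP as the whole of the mesenchyme. Of 12 keratins tested, 10 were called lower, beside 13.3% of all genes. Krt17, a keratin of the follicle, had 48.6 and 9.63 FPKM in DF and 1.65 and 9.21 FPKM in DP, against 111 to 451 FPKM in epithelium. Krt10, the keratin of suprabasal epidermis, had 1.76 to 2.8 FPKM in mesenchyme and 3.25 to 7.67 FPKM in ORS and Mx, but 3811 and 2571 FPKM in Epi. Its difference of -3.87 ± 0.22 (adjusted p = 6.46e-07) was thus mostly that of 1 population, and the call was lost without Epi.

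Of the 14 pathway lists, fibrous matrix had the highest median log2 difference, 4.07. Of 30 tested genes, 27 were called higher and 1 lower, 22 of the higher ones without overlap. For this list and the next ones, the shares of all genes were 16.2% higher, 13.3% lower and 11.3% higher without overlap. Besides the collagens above, Vcan, the proteoglycan versican that marks the papilla, had 319 and 454 FPKM in DF and 1880.2 and 1526 FPKM in DP, against 1.58 to 33.1 FPKM in epithelium. Lum, the proteoglycan lumican, had 169.5 and 565 FPKM in DF and 166 and 133 FPKM in DP, against 0 to 0.538 FPKM in epithelium. The genes that process collagen followed, 14 of 19 called higher and 0 lower, 13 without overlap. Pcolce, which enhances the trimming of procollagen, had 93.9 and 77.4 FPKM in DF and 294 and 269.7 FPKM in DP, against 1.06 to 3.24 FPKM in epithelium. Plod2, a lysyl hydroxylase, had 100.1 and 98.5 FPKM in DF and 212 and 157 FPKM in DP, against 0.22 to 9.69 FPKM in epithelium. P4ha1, Plod3, Bmp1, Crtap and Glt25d1 were not called. Of 17 matrix proteases and inhibitors, 13 were called higher and 0 lower, 11 without overlap. Mmp16, a membrane metalloprotease, had 16.8 and 42.2 FPKM in DF and 36.7 and 31.4 FPKM in DP, against 0 to 0.129 FPKM in epithelium. Reck, a membrane inhibitor of such proteases, had 19.6 and 40.3 FPKM in DF and 38.7 and 50.2 FPKM in DP, against 0.107 to 3.53 FPKM in epithelium. Protease and inhibitor were thus both on the mesenchymal side in every library.

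Several matrix genes usually assigned to fibroblasts were high in an epithelial population. Dcn (chr10:97479500-97518163), the proteoglycan decorin, had 309.8 and 705 FPKM in DF and 257 and 223 FPKM in DP, while Mx held 482 and 407 FPKM, ORS 98 and 54 FPKM, and Epi 8.41 and 5.86 FPKM. Both Mx libraries were above both DP libraries. Dcn was called higher in mesenchyme (2.39 ± 0.26, adjusted p = 4.64e-05) with overlap, and the call was lost without Epi. In the same Mx libraries Col1a1 was at 1.51 and 1.99 FPKM, and the fibroblast marker sums of 504 and 425 FPKM in Mx consisted mainly of Dcn itself. Postn, periostin, had 191 and 525 FPKM in DF and 40.7 and 74.2 FPKM in DP, and Epi held 477 and 505 FPKM of it with Col1a1 at 0.162 and 0.0336 FPKM. It was not called (0.87 ± 0.36, adjusted p = 0.068). It was called higher without Epi (2.25, adjusted p = 0.00335), with DF as the whole of the mesenchyme (2.13, adjusted p = 0.00964), without the first DF library (1.24, adjusted p = 0.0247) and without the second ORS library (1.14, adjusted p = 0.016). Tnc, tenascin C, went the other way from the list, with 12.7 and 21.5 FPKM in DF and 3.75 and 1.82 FPKM in DP, against 11.1 to 114 FPKM in epithelium, low only in Mx. Its difference was -2.68 ± 0.23 (adjusted p = 1.18e-05). Fn1, fibronectin, was at 129 and 179 FPKM in DF and 51.1 and 26.6 FPKM in DP, against 1.84 to 92 FPKM in epithelium, where Epi alone was low. Its call (1.12 ± 0.33, adjusted p = 0.019) was lost without the second DF library, the first DP library or the second Epi library, and the difference was -0.22 without Epi. Bgn, biglycan, kept the order without overlap, with 308 and 441 FPKM in DF and 426 and 357 FPKM in DP, although ORS held 201 and 174 FPKM.

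The border between the layers is built from products of both, and its called genes lay on either side, more of them higher in mesenchyme. Of 26 tested basement membrane genes, 12 were called higher and 5 lower, 8 and 1 of them without overlap. The shares of all genes were 16.2% and 13.3%, and 11.3% and 7.25% without overlap. The 1 lower gene without overlap was thus below the share of all genes. Lama2, the laminin chain known from muscle and mesenchyme, had 71.4 and 107 FPKM in DF and 175 and 219 FPKM in DP, against 0.0258 to 0.283 FPKM in epithelium. Nid1, nidogen, which bridges laminin and type IV collagen, had 154 and 231 FPKM in DF and 274 and 368 FPKM in DP, against 0.137 to 2.34 FPKM in epithelium. Col15a1, a collagen of the zone beneath the membrane, had 80.8 and 62.4 FPKM in DF and 329 and 256 FPKM in DP, against 0 to 0.574 FPKM in epithelium. These 3 were near 0 in each epithelial population, and both DP libraries were above both DF libraries. Col4a1 and Col4a2, the main chains of type IV collagen, were shared with ORS. Col4a1 had 67.3 and 62 FPKM in DF and 35.6 and 45.2 FPKM in DP, and ORS had 81.4 and 61.6 FPKM, while Epi and Mx were at 2.03 to 13.8 FPKM. Col4a3, Col4a4, Col4a5 and Col4a6 were not called.

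Laminin chains Lamb3 and Lama3, of the hemidesmosome list, were lower in mesenchyme. Lamb3 had 2.15 and 0.4 FPKM in DF and 0.0524 and 0.222 FPKM in DP, against 3.34 to 55.8 FPKM in epithelium. Lama3 was called lower (-2.94 ± 0.3, adjusted p = 3.5e-05) with overlap between the first DF library and Mx. In epithelium both were highest in Epi and lowest in Mx. Col17a1, the transmembrane collagen of hemidesmosomes, had 13.2 and 2.76 FPKM in DF and 0.952 and 1.06 FPKM in DP, against 22.4 to 627 FPKM in epithelium. Itgb4, the integrin of hemidesmosomes, had 15.9 and 4.27 FPKM in DF and 4.21 and 2.04 FPKM in DP, against 22.9 to 135 FPKM in epithelium. Of the 10 hemidesmosome genes, 6 were called lower and 0 higher, 4 without overlap, and Plec, Dst, Cd151 and Col7a1 were not called. The shares of all genes were 13.3% lower and 7.25% lower without overlap.

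The Fraser complex, which is known to join both layers through proteins made on either side, lay across the border. Frem1 had 63.9 and 82.6 FPKM in DF and 209.8 and 207 FPKM in DP, against 0.116 to 1.25 FPKM in epithelium, a difference of 6.36 ± 0.19 (adjusted p = 1.69e-08). Frem2 had 4.89 and 2.04 FPKM in DF and 0.114 and 0.188 FPKM in DP, against 11.3 to 42.3 FPKM in epithelium, a difference of -3.28 ± 0.25 (adjusted p = 4.2e-06). Fras1 was called lower (-1.51 ± 0.28, adjusted p = 0.00154) with overlap, at 14.6 FPKM in the first DF library and 3.51 to 4.77 FPKM in the other 3 mesenchymal libraries, against 11.3 to 42.5 FPKM in epithelium. Frem1 was therefore high where Frem2 was low, with no overlap of libraries for either. Nephronectin and its integrin receptor were looked at in the same way. Itga8, the receptor chain, had 10.2 and 15.7 FPKM in DF and 4.17 and 7.99 FPKM in DP, against 0.0219 to 0.347 FPKM in epithelium. Npnt, the ligand in the basement membrane, had 10.5 and 8.67 FPKM in DF and 1.14 and 1.32 FPKM in DP, against 10.2 to 33 FPKM in epithelium. Npnt was called lower (-2.12 ± 0.18, adjusted p = 8.83e-06) with a narrow overlap of the first DF library and Mx. With DF as the whole of the mesenchyme the calls of Npnt and Fras1 were lost. The melanocyte libraries of the study, which belong to neither side, held 46.8 and 53.3 FPKM of Npnt. The part of melanocyte RNA in the DF values of Npnt was not tested.

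Among 16 tested integrins, 8 were called higher and 3 lower, 6 and 2 of them without overlap. Over all genes the shares were 16.2% and 13.3%, and 11.3% and 7.25% without overlap. The lower count was thus not far from the share of all genes. Itga5, the fibronectin receptor chain, had 13.7 and 15.6 FPKM in DF and 24.6 and 17.1 FPKM in DP, against 2.15 to 5.81 FPKM in epithelium. Itga11, a collagen receptor of fibroblasts, had 2.36 and 5.86 FPKM in DF and 3.75 and 1.54 FPKM in DP, against 0 to 0.351 FPKM in epithelium. Itga3, a laminin receptor chain, had 4.93 and 1.7 FPKM in DF and 2.84 and 0.889 FPKM in DP, against 17.7 to 59.4 FPKM in epithelium. Itgb6, an epithelial integrin, had 0.161 and 0.504 FPKM in DF and 0.123 and 0.0622 FPKM in DP, against 3.02 to 34.2 FPKM in epithelium, highest in ORS. Itgb1, the common partner chain, was at 89.4 to 149 FPKM in mesenchyme and 34.5 to 123 FPKM in epithelium and was not called (0.86 ± 0.23), although it passed without the first DF library (1.05).

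**Figure D4:**
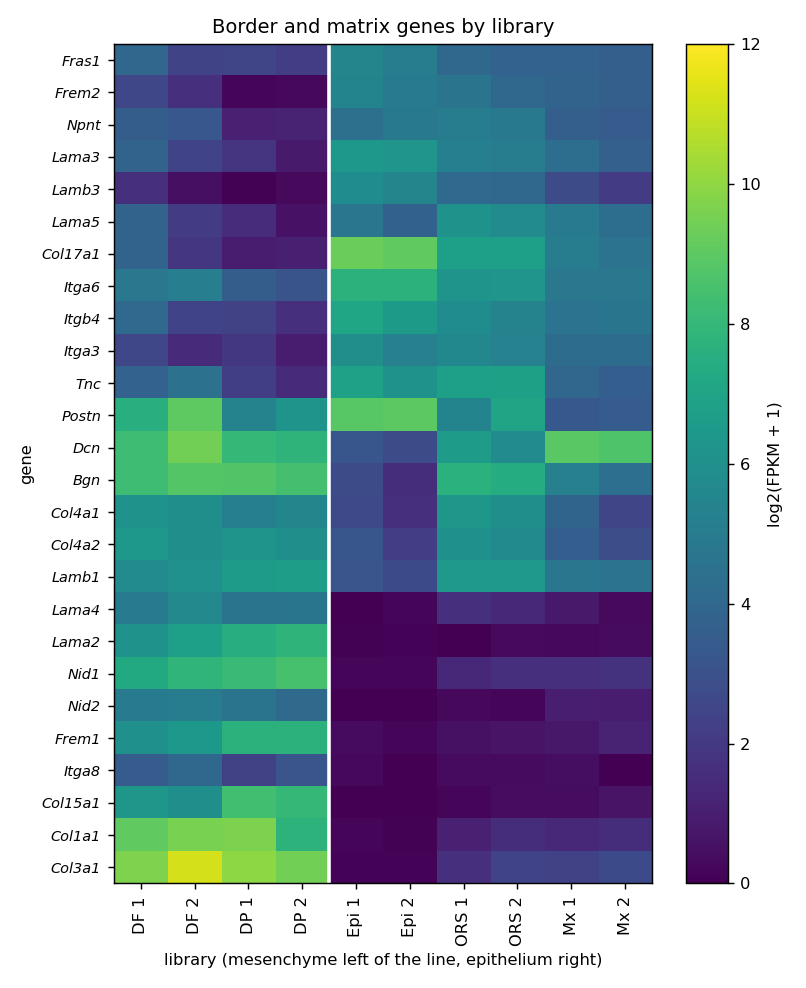
Levels of 26 border and matrix genes (rows) in the 10 libraries (columns, DF and DP left of the white line, Epi, ORS and Mx right of it), coloured by log2(FPKM + 1). Lama3, Lamb3, Frem2 and hemidesmosome genes are bright on the right and Lama2, Nid1, Frem1 and the collagens on the left, while Dcn is bright in Mx, Postn in Epi, and Col4a1, Col4a2 and Bgn in ORS.

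Ligands and receptors were counted in 66 pairs. Of 63 ligands, 19 were higher in mesenchyme without overlap and 4 lower, beside 11.3% and 7.25% of all genes, while most, 34, were not called without overlap and 6 did not reach the FPKM minimum. Of 49 receptors, 12 were higher without overlap, 1 was lower, 33 were neither and 3 did not reach the minimum. The R-spondins, which amplify Wnt signals through Lgr receptors, were among the 19. Rspo3 had 93.1 and 127 FPKM in DF and 664 and 786 FPKM in DP, against 0.0322 to 1.66 FPKM in epithelium, a difference of 7.5 ± 0.3 (adjusted p = 9.41e-08). Rspo1 had 116 and 80.3 FPKM in DF and 300.0 and 239.8 FPKM in DP, against 0 to 1.87 FPKM in epithelium. Rspo2 and Rspo4 were also higher without overlap, and all 4 genes were higher in DP than in DF. Their receptors showed no such order. Lgr4, paired here with Rspo1 and Rspo4, had a log2 difference of 0.05 and was not called. Lgr5 had 6.93 and 6.7 FPKM in DF and 1.22 and 2.44 FPKM in DP, and within the epithelium it was at 93.9 and 102 FPKM in ORS, 11.6 and 5.08 FPKM in Mx and 1.03 and 1.01 FPKM in Epi. Lgr6 had 3.59 and 1.18 FPKM in DF and 0.507 and 1.08 FPKM in DP, against 2.36 to 37.7 FPKM in epithelium. Lgr5 and Lgr6 were called lower in mesenchyme, with overlap.

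The fibroblast growth factor genes Fgf7 and Fgf10 followed the same course. Fgf7, keratinocyte growth factor, had 25.8 and 108 FPKM in DF and 249 and 687 FPKM in DP, against 0 to 1.29 FPKM in epithelium. Fgf10 had 3.75 and 17.5 FPKM in DF and 57.6 and 124 FPKM in DP, against 0 to 0.179 FPKM in epithelium. Both ligands varied more than 2-fold between the replicates of a population. Fgfr2, the gene of their receptor, had 206 and 155 FPKM in DF and 379.9 and 342 FPKM in DP, against 118 to 247 FPKM in epithelium. It was not called (0.61 ± 0.15, adjusted p = 0.00802). It was called higher with DP as the whole of the mesenchyme (1.11, adjusted p = 0.00105) and after quantile normalization (1.08, adjusted p = 0.000208). Gene-level FPKM cannot tell the epithelial from the mesenchymal splice form of Fgfr2. Bmp4, a bone morphogenetic protein, had 92.5 and 81.2 FPKM in DF and 107 and 208 FPKM in DP, against 3.63 to 59.1 FPKM in epithelium. Hgf, hepatocyte growth factor, had 1.12 and 0.756 FPKM in DF and 4.07 and 2.52 FPKM in DP and was listed at 0 in all 6 epithelial libraries. Its receptor gene Met had 15.5 and 19.5 FPKM in DF and 0.173 and 0.199 FPKM in DP, against 1.13 to 22.4 FPKM in epithelium. Met was not called, but was called lower with DP as the whole of the mesenchyme (-2.68, adjusted p = 0.000101). The melanocyte libraries of the study, which belong to neither side, held 137 and 117 FPKM of Met. The part of melanocyte RNA in the DF values of Met was not tested.

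Pairs with a ligand on one side and the receptor on the other, both without overlap, were few. There were 2 with an epithelial ligand and a mesenchymal receptor. Pdgfb had 0.18 and 0.282 FPKM in DF and 0 and 0.0521 FPKM in DP, against 1.28 to 13.3 FPKM in epithelium. Its receptor gene Pdgfrb had 37.4 and 34.1 FPKM in DF and 33 and 25.1 FPKM in DP, against 0 to 0.735 FPKM in epithelium. Pthlh, parathyroid hormone-related protein, had 1.37 and 3.85 FPKM in DF and 0 and 0.877 FPKM in DP, against 5.87 to 19.8 FPKM in epithelium, while its receptor gene Pth1r had 9.44 and 18.6 FPKM in DF and 24.6 and 11.5 FPKM in DP, against 0 to 0.332 FPKM in epithelium. Pdgfb lost its call with a pseudocount of 5. There were 0 pairs with a mesenchymal ligand and an epithelial receptor by limma with the overlap rule. By the limma call alone there were 3 such pairs (Nrg1 with Erbb3, Rspo2 with Lgr6 and Rspo3 with Lgr5), against 7 in the other direction, and at an unadjusted p under 0.05 there were 8 against 9. With DP as the whole of the mesenchyme the 2 counts were 3 (Hgf with Met, Eda with Edar and Rspo2 with Lgr6) and 5. Without the first DF library, or without the second Mx library, there was 1 such pair, Rspo2 with Lgr6.

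**Figure D5:**
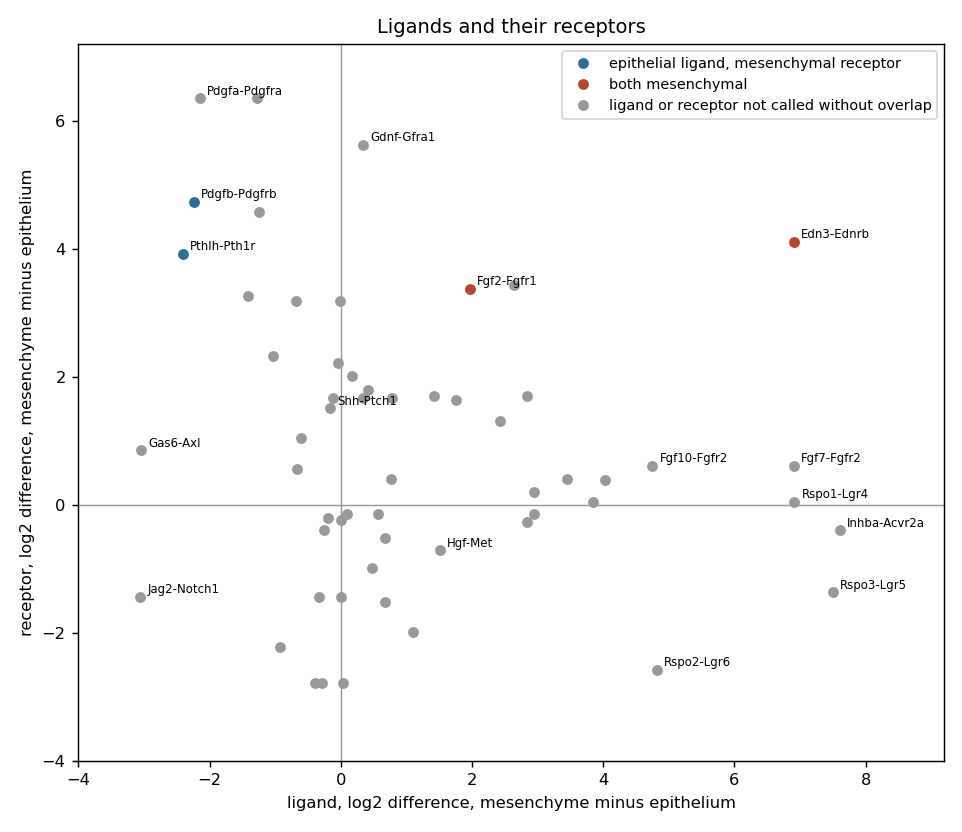
Log2 difference, mesenchyme minus epithelium, of the receptor (y axis) against that of its ligand (x axis) for the pairs in which both genes were tested; colours mark pairs with both genes called without overlap. The 2 pairs at upper left have an epithelial ligand and a mesenchymal receptor, and the lower right, where R-spondins meet Lgr5 and Lgr6, holds no coloured pair.

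Other well-known signals overlapped between the sides, although several were called. Pdgfa (-2.15 ± 0.25, limma adjusted p = 6.83e-05) and Egfr (-2.78 ± 0.25, adjusted p = 1.36e-05) were called lower in mesenchyme. Ptch1 was called higher (1.51 ± 0.22, adjusted p = 0.000353), and Shh was not called (-0.16 ± 0.44, adjusted p = 0.788). The calls of Pdgfa and Ptch1 were lost with DF as the whole of the mesenchyme, and that of Ptch1 also without Epi. Pdgfa, which signals to Pdgfra, had 118 and 70.2 FPKM in DF and 8.29 and 12.6 FPKM in DP, against 58 to 289 FPKM in epithelium, so that both DF libraries reached the Mx range. Shh, the hedgehog ligand of the hair matrix, had 50.1 and 7.99 FPKM in DF and 0.413 and 0.638 FPKM in DP, and in epithelium 51.5 and 44.2 FPKM in Mx, 4.07 and 2.09 FPKM in ORS and 0.852 and 0 FPKM in Epi. The first DF library held as much Shh as Mx did, and with DP as the whole of the mesenchyme Shh was called lower (-2.07, adjusted p = 0.00167). Ptch1, receptor and target gene of hedgehog signals, was at 189 and 159.9 FPKM in DF and 365 and 390.5 FPKM in DP, against 29.2 to 214 FPKM in epithelium. Egfr, the epidermal growth factor receptor, had 46.5 and 17.7 FPKM in DF and 3.56 and 2.42 FPKM in DP, against 43.5 to 112 FPKM in epithelium, and only the first DF library reached the epithelial range. In 2 pairs ligand and receptor were both higher in mesenchyme, Fgf2 with Fgfr1 and Edn3 with Ednrb. Edn3, endothelin 3, had 40.7 and 66.4 FPKM in DF and 302 and 384 FPKM in DP, against 0 to 0.445 FPKM in epithelium. Ednrb, its receptor gene, which melanocytes also express, had 61.4 and 80.6 FPKM in DF and 7.89 and 9.32 FPKM in DP, against 0 to 1.41 FPKM in epithelium, in the same libraries in which melanocyte markers were highest.

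Markers of other cells show what the overlap rule added. Among all genes, 16.2% were called higher, 11.3% without overlap. Of 10 melanocyte markers, all were called higher in mesenchyme, but Slc24a5, a melanosome exchanger, was the only one without overlap, at 24.7 and 42.1 FPKM in DF and 2.32 and 1.23 FPKM in DP, against 0.174 to 1.02 FPKM in epithelium. The calls of Slc24a5, Abcc9 and the endothelial marker Flt1 were lost with DP as the whole of the mesenchyme. Of 10 pericyte and smooth muscle markers, 6 were called higher and Myh11 and Abcc9 were without overlap. Of 10 Schwann cell markers, 6 were called higher and 1 lower, and S100b alone was without overlap, at 3.02 and 8.89 FPKM in DF and 43.3 and 45.1 FPKM in DP, against 0.0844 to 2.85 FPKM in epithelium. Endothelial markers summed to 11.2 to 15.5 FPKM in mesenchyme and 0 to 15.6 FPKM in epithelium, with 3 of 9 called higher. Leukocyte markers summed to at most 9.53 FPKM in mesenchyme and 3.91 FPKM in epithelium.

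The same order was looked for in libraries that the comparison did not use, 8 of dermal papilla from Sox2-GFP and Crabp1-GFP lines and 6 of epithelium. The epithelial ones were TAC (low K14-H2BGFP with Lef1-RFP) and, from a K14-RFP Sox9-GFP line, HF-SC and HF-ORS. Of the 1567 genes higher without overlap, 978 (62.4%) were also higher without overlap there, against 1632 of all 13814 tested genes (11.8%). Of the 1001 lower genes, 508 (50.7%) were lower without overlap, against 1302 of all genes (9.43%). In the opposite order there were 0 and 0 genes. Of the marker genes, Pdgfra, Krt5 and Cdh1 kept their order there and Col1a1 did not. Col1a1 was at 53.7 to 402 FPKM in the papilla libraries and 27.7 to 81 FPKM in the epithelial ones. Among the leading genes higher in mesenchyme, Mfap4 and Lum overlapped there as well, and the rest kept their order. Mouse lines differ between these 2 sides, so the shares are a description.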

How the data were processed

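Populations were sorted by flow cytometry, and RNA with an integrity number of at least 8.8 was used. Per the labels' protocols, 6 ng of RNA was amplified with the Ovation RNA-seq System V2 and 100 ng of the cDNA went into each library. The authors deposited 1 table of FPKM values, made with TopHat2 2.0.3, Bowtie2 and Cufflinks 2.1.1 on mm10, tools and build as named in the submitters' processing notes. No source used here states the annotation, the strand setting or the depth. Steps of whole fragments were looked for in low values, and 25 of 120 triples of libraries (20.8%) gave steps that matched to within 0.06 log2 units, so depth is unknown and no counting interval is given. FPKM sums were 325416.0 to 339299.7 in mesenchyme and 373066.5 to 464923.9 in epithelium, with 11977 to 12497 and 11105 to 11452 genes at 1 FPKM or more. Amplification from little RNA limits low values, and an exact 0 can be a failed estimate.

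The table had 23235 rows, and removing 220 that repeated another left 23015. Among these, 64 had a symbol in common with another row and 170 joined several names. The deposited FPKM were tested on log2(FPKM + 1), pseudocount 1, for genes with at least 1 FPKM in 2 of the 10 libraries. A linear model in limma 3.58.1 (R 4.3.3) gave each population its own mean, and the contrast was the mean of DF and DP minus the mean of Epi, ORS and Mx. Variances were moderated by empirical Bayes against a mean trend, with 5 degrees of freedom from the residuals and 4.9 from the prior. P-values were adjusted over all genes by the Benjamini-Hochberg method, and calls needed an adjusted p under 0.05 and a log2 difference of at least 1. Fold changes on this scale are understated for low genes. The p-values and SE measure only the spread between the 2 libraries of each population. Differences between populations of the same side are not part of that spread. Nothing says that replicates came from separate animals, so the spread may be technical. The fitting script was tested on simulated data.

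Gene positions and promoters are those of RefSeq for GRCm38.p6 (mm10) with the same symbol. The members, the 25 gene lists and the 66 ligand and receptor pairs were chosen with earlier results of these data known, from textbook knowledge, and lists are described by counts and medians only. Named genes were the 4 markers, the gate genes, the 10 largest gaps in each direction (no predicted names, small RNAs or joined rows), up to 4 members per list and direction with the largest gap, members that were exceptions, and genes of pairs on opposite sides. Further genes, among them Shh, Ptch1, Egfr, Trp63 and the R-spondins, were named after their values were seen. Alternatives were other pseudocounts, filters and scalings, a replicate block, other sets of populations, population means as units, and each library left out in turn. A member of the hemidesmosome list is counted but not reported here by name.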

Additional observations from a re-analysis of the deposited data

Results flagged for a closer look

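In groups of 4 or 6 libraries, 18 of 318 sets of values had 1 library far from the rest of its side (Dixon's test at 95%). Among libraries of a single population, chance alone would flag about 1 in 20 such sets. Each side here joins different populations, so that rate need not apply, and the flags are only descriptions. In mesenchyme, the first DF library was highest for Krt15 at 14.9 FPKM, for Lsr at 8.47 FPKM and for Marveld3 at 2.47 FPKM, all 3 of them epithelial genes, and it was the lowest for Tbx15 at 64.8 FPKM. The same library had the highest keratinocyte marker sum of the mesenchyme, 1072 FPKM, and the part of this in those values was not tested. The second DF library was highest for Lum at 565 FPKM and for Timp2 at 108 FPKM, and the first DP library for Fgf2 at 17 FPKM.

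In epithelium, the second Mx library was highest for Corin at 0.489 FPKM, Tbx15 at 0.692 FPKM and Fgf7 at 1.29 FPKM. The first Mx library was highest for Mmp16 at 0.129 FPKM, Adamts4 at 0.583 FPKM, Zeb1 at 0.228 FPKM and the summed mast cell markers at 2.94 FPKM. The first Epi library was highest for Pth1r at 0.332 FPKM and Snai1 at 1.23 FPKM, the first ORS library for Rspo4 at 0.495 FPKM and the second for Twist1 at 0.629 FPKM. All of these are mesenchymal genes or markers of another cell at a low level, and the 10 genes among them were called higher in mesenchyme without overlap all the same.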

How the results depend on the processing

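Among the 148 named genes, Fn1 was the only called one to change sign in any alternative, and the counts of called genes stayed within 1.5 times of those reported except as follows. With a pseudocount of 5, calls were 1070 higher and 971 lower in mesenchyme, 881 and 638 without overlap, and 8 named genes lost their call (Rbm47, Itga11, Flt1, Prox1, Pdgfb, Cdh13, Fn1 and Hgf), so that 1 pair with an epithelial ligand remained. With population means as units, so that the spread between populations of 1 side was the error, calls were 889 and 463, 875 and 425 without overlap, with 1 such pair, and 57 named genes lost their call, among them Krt14, Trp63, Snai2, Dcn, Krt10, Col17a1 and Pdgfb. With DP alone against epithelium, 1848 genes were lower without overlap, and 3 pairs with a mesenchymal and 5 with an epithelial ligand were found. With the same FPKM sum in each library, 2889 genes were called higher and 1163 lower, 484 of the lower ones without overlap, 197 of which kept the order in the libraries not compared. Quantile normalization gave 1 pair with a mesenchymal ligand, and 1276 higher and 1132 lower genes without overlap. Leaving out 1 library at a time gave 2131 to 2341 higher and 1572 to 2057 lower calls, 1590 to 1835 and 987 to 1478 without overlap, and 0 to 1 and 2 to 3 pairs.

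Differences of genes that had not passed the test, or had passed it narrowly, changed sign as follows. Postn was -0.38 with DP alone, but was called higher by quantile normalization (1.24) and at the same FPKM sum (1.21), and Fn1 was -0.22 without Epi. Shh was 1.74 with DF alone, 0.03 at the same FPKM sum and -0.79 to 0.46 when 1 library was left out. Met was 1.27 with DF alone and 0.03 without Epi, and was called lower with DP alone (-2.68) and with a pseudocount of 0.1 (-1.45). Slc24a5, Abcc9 and Flt1 overlapped after quantile normalization. The causes were not tested.

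Replicate numbers are shared by the populations, but same-numbered libraries deviated together at r = 0.061 to 0.281 in 10 pairs of populations, 9 of them over 0.1, and no label says what a number marks, so the numbers were not read as a pairing. With the number as a block, 2247 genes were called higher and 1856 lower, 1567 and 1001 without overlap, and 0 named calls changed.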

Other observations

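Melanocytes (Mc; Lef1-RFP-positive and CD117-positive) and the mixture of marker-negative cells (Neg) belong to neither side, and their place on the genes called without overlap was as follows. Of the 1567 genes higher in mesenchyme, both Mc libraries were at or above the lowest mesenchymal library for 388 (24.8%) and at or below the highest epithelial library for 609 (38.9%). Zeb2 was at 58.3 and 80.1 FPKM in Mc, and Col1a1 was at 11 and 1.82 FPKM. Of the 1001 genes lower in mesenchyme, both Mc libraries were at or above the lowest epithelial library for 163 (16.3%) and at or below the highest mesenchymal library for 437 (43.7%). Cdh1 was at 122 and 83.4 FPKM in Mc, while Krt5 was at 18.3 and 11 FPKM. The melanocyte libraries thus held Zeb2 and Cdh1 together, with little Krt5 or Col1a1.

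The Neg libraries were placed in the same way. They were at or above the lowest epithelial library for 449 of the 1001 lower genes (44.9%) and at or below the highest mesenchymal library for 16 (1.6%). For the 1567 higher genes they reached the lowest mesenchymal library for 176 (11.2%) and were at or below the highest epithelial library for 496 (31.7%). The level to reach was the lowest of 6 libraries for the lower genes and the lowest of 4 for the higher genes. These shares, and those of Mc, were not counted over all tested genes and are only descriptions.

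In the epithelial libraries not compared, Col1a1 was at 52.5 and 27.7 FPKM in TAC, 75.8 and 81 FPKM in HF-SC and 40.3 and 53.7 FPKM in HF-ORS, against 0.0336 to 1.99 FPKM in Epi, ORS and Mx. The papilla libraries not compared held 53.7 to 402 FPKM of Col1a1, so the sides overlapped for it there.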
